A study of Mus musculus with 2 samples.

Results

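Rab GTPases are small membrane switches that direct the traffic of vesicles between the compartments of a cell. In the GTP-bound form a Rab sits in the membrane by lipid chains attached to cysteines at its C-terminus and recruits effectors such as tethers and motors, and exchange factors and GTPase-activating proteins turn it on and off. In dendritic cells, the phagocytes that present antigen to T cells, Rabs are known to govern the uptake and degradation of antigen, the delivery of Toll-like receptors and MHC molecules, and the release of cytokines. The genes described here are the symbols made of Rab, a number and at most 1 letter, with or without an l and a digit: 60 of the 23238 gene symbols in the counts. The pattern also takes Rab3il1, which encodes an exchange factor for Rab GTPases and is not itself a GTPase, so that 59 symbols name GTPases. Of the 60, 41 had 50 or more reads in at least 1 of the libraries (40 GTPases and Rab3il1), and these are described in full.

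The counts came from mouse bone marrow-derived dendritic cells of female C57BL/6 mice aged 7 weeks. Marrow was grown in medium with 20 ng/ml of the cytokine GM-CSF, renewed on day 3, and immature, non-adherent or loosely attached cells were taken on day 6. The control was 1 library, and the labels do not describe its treatment. The other library came from cells that had received UNE-C1, a part of cysteinyl-tRNA synthetase known as a ligand of Toll-like receptors, at 100 nM during 24 h. The question is which genes differ once it is added. Totals were 14857198 reads for the control and 15975821 for UNE-C1. With 1 library in each group there was no replicate error, no test was made, and every interval given here is an exact 95% interval that covers counting error only. The labels do not say how many animals or cultures gave each library.

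All 9 dendritic cell markers were past the floor, with a summed level of 6761 CPM in the control library and 6232 CPM with UNE-C1; 1 was at least 2-fold higher and 2 were lower, among them Itgax, which encodes CD11c, at 759 and 246 CPM. CPM are counts scaled to a common library size after TMM, a factor that makes the bulk of genes level. Neutrophil markers were also present: all 9 that were measured were at least 2-fold lower with UNE-C1, and their summed level was 7877 and 3123 CPM. Monocyte and macrophage markers summed to 3446 and 3106 CPM, but of the 6 past the floor 2 were at least 2-fold higher (Fcgr1, 33.0 and 397 CPM, and Adgre1, 116 and 348 CPM) and 2 were lower (Mrc1, 77.2 and 5.64 CPM, and Ccr2, 246 and 46.2 CPM). Markers of mast cells, basophils and eosinophils summed to 1212 and 797 CPM, with 0 higher and 2 lower of 5. Those of erythroid cells and megakaryocytes summed to 298 and 158 CPM with 0 of 3 past 2-fold, and nearly all of that difference was Pf4 (286 and 145 CPM). Those of B cells and of T and natural killer cells summed to under 2 CPM in each library. In bulk RNA, fewer cells of a type and less RNA per cell cannot be told apart, and the part of these other cells in the Rab values was not tested.

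Every Rab GTPase in the files carried the sequence feature by which the protein is anchored. In the GENCODE M21 transcripts (GRCm38), all 59 coding sequences had at least 1 cysteine codon (TGT or TGC) among the last 4 codons before the stop. Within these 4 codons, 44 had 2 and 15 had 1. A pair that began further inside, as in Rab11a and Rab11b, was counted as 1. Among all 21484 genes with a coding sequence the share with such a codon was 10.5%. Rab3il1 had none. The GTPase coding sequences ran from 585 to 2178 bases, with a median of 648. The last 10 codons and the stop codon are shown for some of the genes with the larger differences and for some of the paralogues set against each other below. They are written 5′ to 3′ on the coding strand, with cysteine codons in capitals.
Rab33a: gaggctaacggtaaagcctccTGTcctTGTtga
Rab33b: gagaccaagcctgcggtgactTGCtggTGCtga
Rab10: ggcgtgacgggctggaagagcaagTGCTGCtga
Rab22a: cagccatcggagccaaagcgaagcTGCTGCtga
Rab13: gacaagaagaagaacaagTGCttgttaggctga
Rab32: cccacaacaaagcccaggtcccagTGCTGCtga
Rab38: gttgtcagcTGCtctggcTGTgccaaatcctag
Rab11a: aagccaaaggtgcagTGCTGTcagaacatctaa
Rab11b: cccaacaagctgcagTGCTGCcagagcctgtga
Rab7: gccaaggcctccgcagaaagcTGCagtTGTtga
Rab7b: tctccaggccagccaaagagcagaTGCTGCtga
Rab3il1: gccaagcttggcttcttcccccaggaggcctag
The ends fall into visible classes. Rab10, Rab22a, Rab32 and Rab7b close with adjacent cysteine codons directly before the stop. Rab33a, Rab33b and Rab7 have 1 other codon between them. Rab13 has a single cysteine codon followed by 3 other codons, and Rab11a and Rab11b carry the pair further inside.

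Few genes of the family were 2-fold or more apart between the libraries, and with TMM most GTPases were higher with UNE-C1. Of the 41 genes, 3 (Rab33a, Rab10 and Rab22a) had log2(CPM + 1) values that were higher with UNE-C1 by 2-fold or more. The 1 gene lower by as much was Rab3il1, and no GTPase was. Over all 10469 genes past the same floor of 50 reads, 9.31% were at least 2-fold higher and 9.42% lower, so that 3 of 40 GTPases (7.50%) is near the background on the higher side. At 1.5-fold, 12 of the 40 GTPases were higher, which is above the background of 18.2%. On the lower side 1 of the 40, Rab38, passed, which is below the background of 19.3%. The other 27 (67.5%) lay within 1.5-fold on the log2(CPM + 1) scale, as did 62.5% of all genes. The median log2 fold change, UNE-C1 over control, was 0.24 for the GTPases and -0.00 for all genes, and 30 of the 40 were above 0. With total counts in place of TMM these medians became -0.07 and -0.33, 18 GTPases stood above 0, and Rab33a alone remained at least 2-fold higher. DESeq2 size factors changed the sign of 0 GTPases, whereas total counts took 12 from above to below 0. The 1.5-fold counts above used TMM. With total counts Rab7 (log2 fold change -0.76) and Rab27a (-0.64) also passed 1.5-fold on the lower side. On the higher side genes such as Rab8a (0.52) and Rab5c (0.52) no longer did. The 1.5-fold background was not counted with total counts. The floor was passed through 1 library only by Rab33a (UNE-C1) and by Rab38 and Rab3il1 (control).

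**Figure D1:**
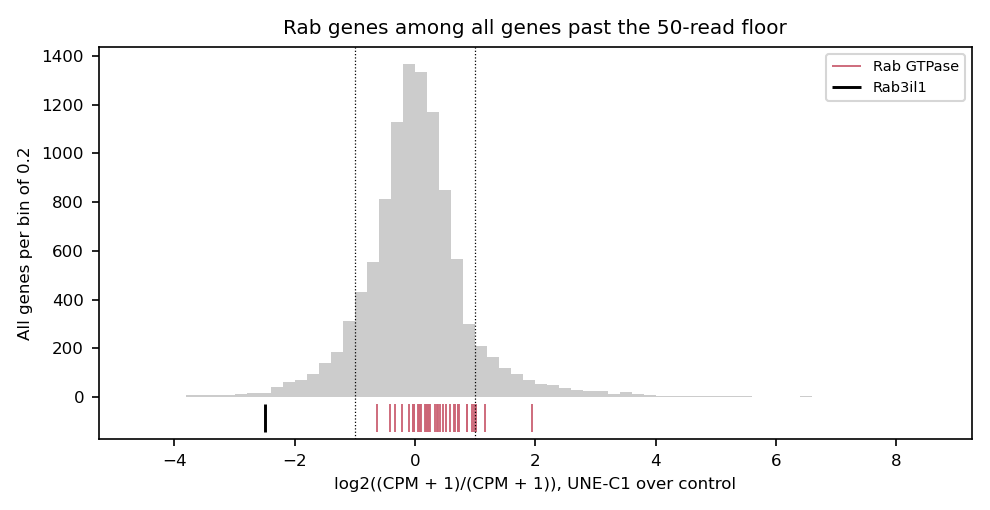
Histogram of log2((CPM + 1)/(CPM + 1)), UNE-C1 over control, for the 10469 genes past the floor of 50 reads; ticks under the bars mark the 40 Rab GTPases and Rab3il1, and dotted lines mark 2-fold. The GTPases lie between -0.64 and 1.94, and Rab3il1 stands apart at -2.49.

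Reads on Rab GTPases made up 0.442% of the control reads (interval 0.439 to 0.446) and 0.470% of the UNE-C1 reads (0.467 to 0.474). With TMM their summed level was 3927 and 5296 CPM, a ratio of 1.35 (1.33 to 1.36). The makeup of these reads by step of traffic, given as shares of all Rab GTPase reads in a library, does not depend on how libraries are scaled. Rabs of recycling and exocytosis to the surface took 42.0% of all Rab reads in the control library (41.7 to 42.4) and 47.4% in the UNE-C1 library (47.0 to 47.7). Rabs of the late endosome and lysosome took 20.5% (20.2 to 20.8) and 14.0% (13.7 to 14.2). Both differences lean on 1 gene. Leaving these genes out was chosen after the values were seen. Without Rab10 the recycling Rabs took 36.3% and 38.1%, and without Rab7 the late endosomal Rabs took 10.7% and 8.41%. Early endosomal Rabs took 12.0% and 13.6%, ER and Golgi Rabs 16.6% and 15.1%, and those of regulated secretion 5.50% and 6.22%. The gene with the most reads was Rab14 in the control library (14.0% of Rab reads) and Rab10 in the UNE-C1 library (14.96%). QuantSeq kits are known to read messenger RNA near its 3′ end, so reads were not divided by transcript length, and shares are shares of reads.

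**Figure D2:**
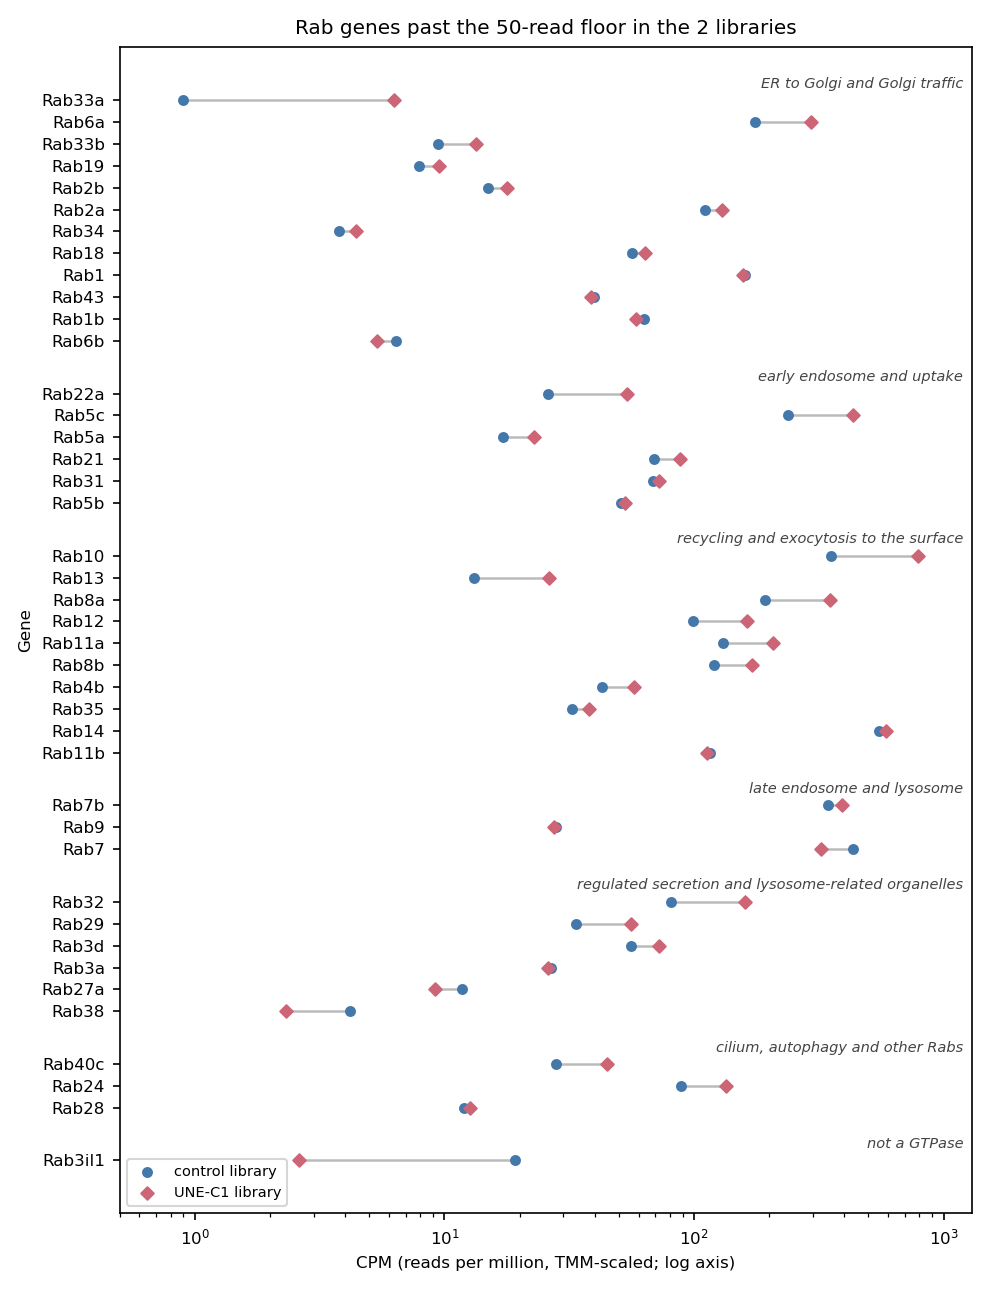
CPM (log axis) of the 41 genes past the floor in the control library (circles) and the UNE-C1 library (diamonds), ordered by step of traffic and by fold change, 1 library each. Rab10 reaches 792 CPM with UNE-C1, and most other pairs of points lie close together.

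Of the 10 Rabs of recycling and exocytosis to the cell surface past the floor, 9 had log2 fold changes above 0 and 1 was past 2-fold, with a median of 0.58. Rab10, which carries cargo such as glucose transporters and Toll-like receptor 4 to the plasma membrane, had 5907 reads in the control library and 11240 in the UNE-C1 library. This is 353 and 792 CPM, 2.24-fold higher (interval 2.17 to 2.32; log2 fold change 1.16, and 0.82 with total counts). The gene is on the minus strand of chromosome 12 (GRCm38), between 3247428 and 3309969. The last 300 bases of the transcript lie within the span of the antisense gene Rab10os, which had 118 and 275 reads, but matched no transcript of it at the settings used. Rab13, which acts in junction assembly and cell migration, had 219 and 372 reads (2.004-fold, 1.69 to 2.38; log2 fold change 0.95), just under the threshold on the log2(CPM + 1) scale. Rab8a, which serves exocytosis and cilium formation, had 3211 and 4961 reads (1.82-fold, 1.74 to 1.91). These 3 genes were higher under each scaling tried.

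The remaining recycling Rabs covered the range from 1.65-fold higher to level. Rab12, known for sending the transferrin receptor to degradation, had 1654 and 2319 reads. Rab11a, the classical Rab of the recycling endosome, had 2193 and 2937 reads, and Rab8b had 2005 and 2433. Rab4b, of fast recycling from early endosomes, had 716 and 818 reads and Rab35, also of fast recycling, 545 and 541. Rab14, which works between the Golgi and endosomes and on phagosomes, had 9220 and 8348 reads, and Rab11b 1933 and 1599. Of these 7, Rab12, Rab11a, Rab8b and Rab4b stayed above a ratio of 1 with total counts, Rab35 and Rab14 turned below 1, and Rab11b was below 1 under both.

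Among the 6 early endosomal Rabs (median log2 fold change 0.36), Rab22a crossed the threshold by a small margin. It acts in sorting from early endosomes and in the recycling of MHC class I, and had 435 and 763 reads, or 26.0 and 53.8 CPM (2.07-fold, 1.84 to 2.33; log2 fold change 1.02). With total counts its log2 fold change was 0.69, and with a pseudocount of 5 it was 0.92. The gene is on the plus strand of chromosome 2, between 173659760 and 173707343. Rab5c, 1 of 3 isoforms of the Rab that drives fusion of early endosomes, had 3994 and 6145 reads (1.82-fold, 1.74 to 1.89). The sister gene Rab5a had 288 and 323 reads (1.32-fold, 1.13 to 1.56), and the last 300 bases of a transcript of it overlap Pp2d1 on the opposite strand, which had 241 and 278 reads. Rab21, which binds integrins during uptake, had 1162 and 1245 reads, Rab31, of traffic between the trans-Golgi network and endosomes, 1149 and 1024, and Rab5b 857 and 749. All 6 ratios were above 1 with TMM, and those of Rab21, Rab31 and Rab5b fell below 1 with total counts.

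The 3 late endosomal Rabs did not share a direction with TMM (median log2 fold change -0.02). With total counts all 3 were below 0 (Rab7 -0.76, Rab7b -0.16 and Rab9 -0.35). Rab7, which controls fusion of late endosomes and phagosomes with lysosomes, had 7239 reads in the control library and 4579 in the UNE-C1 library. That is 433 and 323 CPM, 1.34-fold lower (1.29 to 1.39), and it was lower under each scaling tried. Part of its 3′ end (237 bases) matches the pseudogene Rab7-ps1 at 97.0% identity, so that some reads may be shared. Rab7b, which is known to direct Toll-like receptors to lysosomes and to return cargo to the Golgi, had 5763 and 5540 reads (1.13-fold higher, 1.09 to 1.18), below 1 with total counts. Rab9, of mannose 6-phosphate receptor return, had 468 and 390 reads (ratio 0.983, 0.857 to 1.13).

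The 6 Rabs of regulated secretion and lysosome-related organelles were split, 3 above and 3 below 0 (median 0.16). Rab32, which acts in the biogenesis of such organelles and in the defence of macrophages against vacuolar bacteria, had 1349 and 2265 reads (1.98-fold higher, 1.85 to 2.12; log2 fold change 0.98). Rab29, formerly Rab7l1, which recruits the kinase Lrrk2, had 565 and 793 reads (1.66-fold, 1.48 to 1.85). Lrrk2 itself had 110 and 238 reads. Rab38, the close relative of Rab32 that shares its role in pigment granules, had 70 and 33 reads (1.80-fold lower, 1.17 to 2.81). Rab27a, which brings secretory lysosomes and exosome-bearing endosomes to the plasma membrane, had 197 and 130 reads (1.28-fold lower, 1.02 to 1.62). Rab3d, of secretory granules, had 938 and 1024 reads, and Rab3a, known from synaptic vesicles, 447 and 369 (ratio 0.974, 0.846 to 1.12). The Rab3a 3′ end overlaps Mpv17l2 on the opposite strand, which had 733 and 642 reads. Rab38 and Rab27a were lower with TMM and with total counts, whereas the interval of Rab3a included 1 with TMM.

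Of the 12 Rabs of ER and Golgi traffic, 8 were above 0 (median 0.21), and Rab33a had the largest ratio of the GTPases past the floor. It belongs to a pair of Golgi Rabs that bind the autophagy protein Atg16l1. Its reads were 15 in the control library and 89 in the UNE-C1 library, or 0.896 and 6.27 CPM (7.00-fold, 4.02 to 13.0; log2 fold change 1.94). It passed the floor through the UNE-C1 library alone. With so few reads the log2 value moves with the pseudocount, to 2.68 at 0.1 and 0.94 at 5. The gene is on the plus strand of chromosome X, between 48519285 and 48530232. Rab6a, which moves vesicles at the Golgi and carries secreted cytokines outward, had 2945 and 4167 reads (1.67-fold, 1.59 to 1.75). Rab33b had 158 and 190 reads (1.42-fold, 1.14 to 1.76), but 161 other genes hold a stretch that matches its 3′ end at 95% identity or more over at least 50 bases, so that its reads are uncertain.

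The Rabs of the first step out of the ER were close to level. Rab1, the Rab1a gene, which tethers ER-derived vesicles at the Golgi, had 2677 and 2236 reads, and Rab1b 1054 and 833. Rab2a, of the same route, had 1859 and 1836 reads, and Rab2b 250 and 252. Rab18, of the ER and lipid droplets, had 947 and 901 reads. Rab43, known for a part in antigen cross-presentation by dendritic cells, had 666 and 551 reads. Of its 3′ end, 292 bases match Gm45140 on the same strand at 100% identity, so that some reads may be shared. Rab19 had 132 and 135 reads, Rab6b 107 and 76, and Rab34, which positions lysosomes, 63 and 63. All 9 lay within 1.5-fold on the log2(CPM + 1) scale, and Rab2a, Rab2b, Rab18, Rab19 and Rab34 were above 0 with TMM and below it with total counts. Among Rabs with other roles, Rab40c, part of a ubiquitin ligase, had 469 and 635 reads (1.597-fold, 1.42 to 1.80). Rab24, linked to autophagy, had 1489 and 1899 (1.505-fold, 1.41 to 1.61), and Rab28, of the cilium, 200 and 180 (1.06-fold, 0.863 to 1.31, below 1 with total counts).

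**Figure D3:**
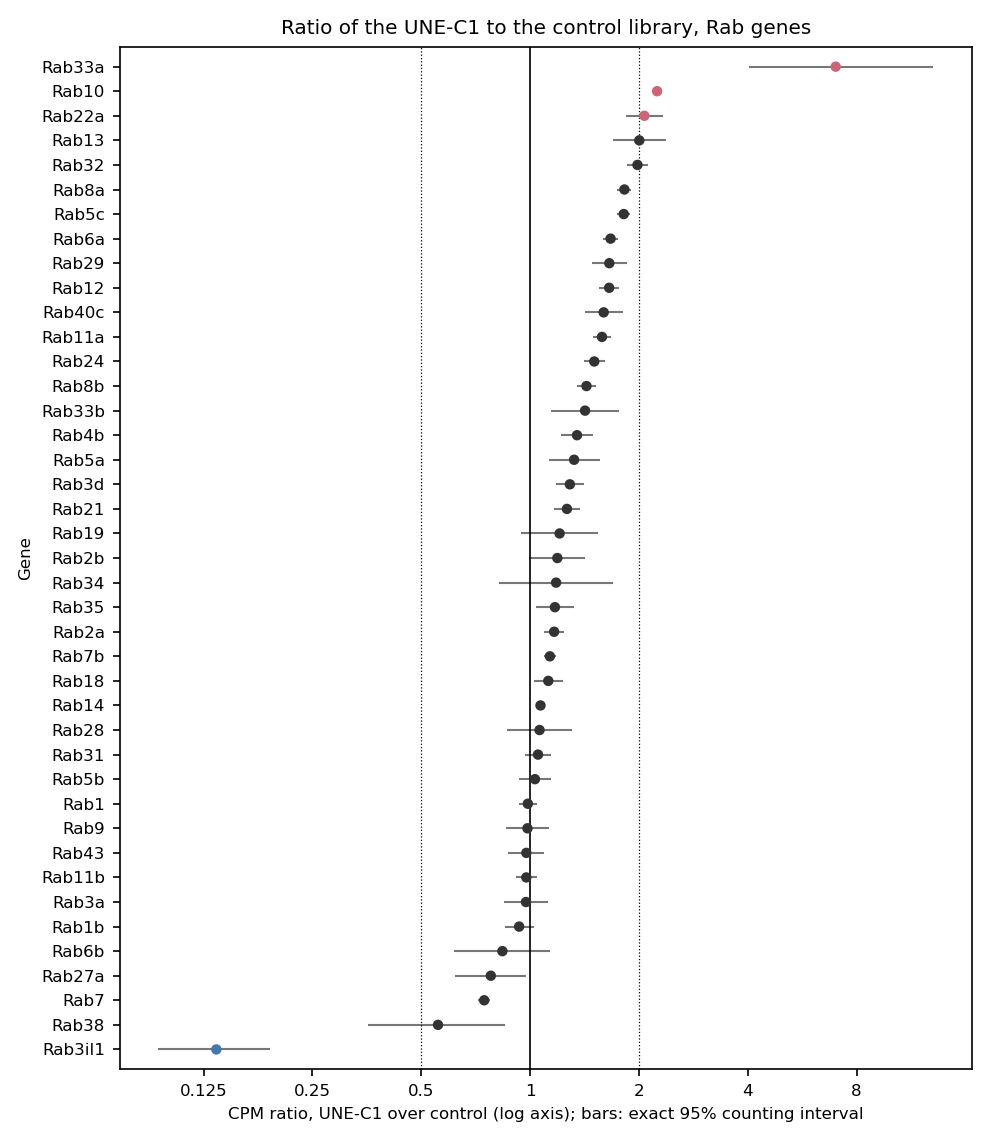
CPM ratio of the UNE-C1 to the control library (log axis) for the 41 genes past the floor, with exact 95% counting intervals as bars and dotted lines at 2-fold; coloured points are past 2-fold on the log2(CPM + 1) scale. Rab33a at 7.00 and Rab3il1 at 0.136 stand apart, and the others form a gradual series from 0.556 for Rab38 to 2.24 for Rab10.

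Paralogues that carry the same number can be compared inside a library, where scaling plays no part. Rab11a took 53.2% of the reads of its pair with Rab11b in the control library (51.6 to 54.7) and 64.7% in the UNE-C1 library (63.3 to 66.1). Rab5c took 77.7% of Rab5 reads (76.6 to 78.9) and then 85.1% (84.3 to 86.0), while Rab5b went from 16.7% to 10.4%. In the Rab7 and Rab7b pair, Rab7 held 55.7% (54.8 to 56.5) and then 45.3% (44.3 to 46.2), so that Rab7b had the larger number of reads with UNE-C1. The share of Rab33a in its pair was 8.67% (4.93 to 13.9) and 31.9% (26.5 to 37.7), and rests on the uncertain Rab33b reads. Rab8a went from 61.6% to 67.1% of its pair, and Rab3d from 67.5% to 73.5% of Rab3 reads. Rab6a took 96.5% (95.8 to 97.1) and 98.2% (97.8 to 98.6) of its pair with Rab6b. Rab27a took 96.6% (93.1 to 98.6) and 86.1% (79.5 to 91.2) of its pair with Rab27b, which had 7 and 21 reads.

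The intervals of both libraries overlapped for Rab1, Rab2 and Rab4. Rab1 held 71.8% and 72.9% of its pair with Rab1b, with intervals of 70.3 to 73.2 and 71.2 to 74.4. Rab2a held 88.1% (86.7 to 89.5) and 87.9% (86.5 to 89.3). Rab4b held 99.3% (98.4 to 99.8) and 98.6% (97.5 to 99.3), and Rab4a had 5 and 12 reads. Of the Rab4b 3′ end, 294 bases match Gm21983 on the same strand at 100% identity, so that some reads may be shared. The Rab4a 3′ end overlaps Gm20388 on the same strand. No 3′ end of a Rab gene matched that of another at 95% identity over at least 50 bases, the settings chosen for this search. Of the genes past the floor, 12 had a 3′ end that matched or overlapped another gene. Those not described with such a gene above were Rab11a (Gm47308), Rab22a (Mir6340), Rab2b (Gm43766), Rab40c (Gm26694) and Rab18 (AC131796.2, same strand). How far such genes share reads was not tested.

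**Figure D4:**
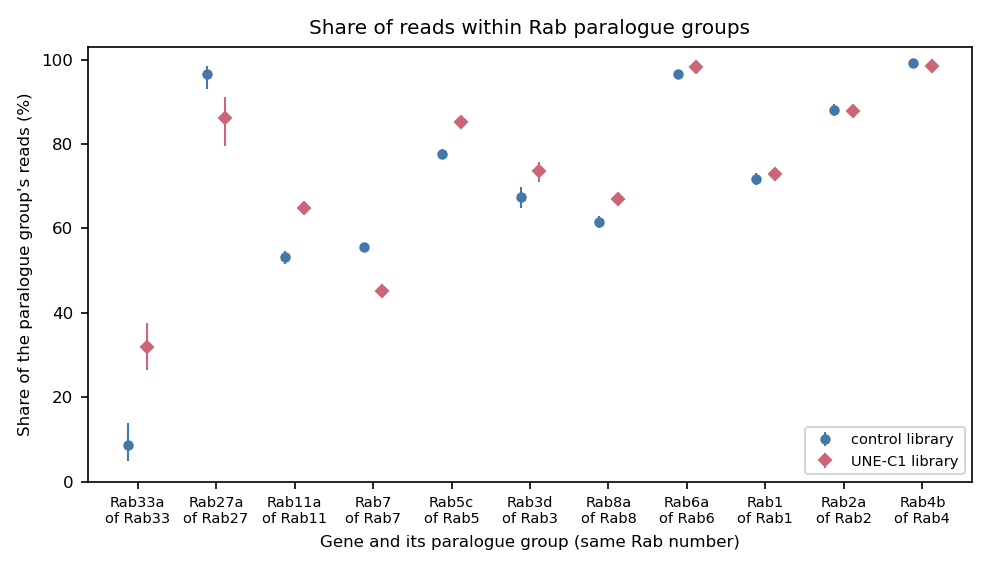
Share of the reads of each same-numbered paralogue group taken by the named gene, in the control (circles) and UNE-C1 (diamonds) libraries, with exact 95% counting intervals. Rab33a, Rab11a and Rab5c have larger shares with UNE-C1, Rab7 and Rab27a smaller ones, and Rab1 and Rab2a have overlapping intervals.

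The 19 symbols below the floor were all GTPases. Rab20, Rab40b and Rab9b had 0 reads in both libraries, which allows up to 3 reads, which is 0.179 CPM for the control and 0.211 CPM for UNE-C1. Just under the floor were Rab42, with 34 and 14 reads, and Rab23, a regulator of hedgehog signalling, with 30 and 29. Just above it were Rab34 and Rab38. Rab37, of granule secretion, had 28 and 9 reads, and Rab30, a Golgi Rab, 22 and 3 (6.22-fold lower, 1.87 to 32.4). Rab26, of secretory granules, had 8 and 28 reads, and its 3′ end overlaps Traf7 on the same strand, with 635 and 664 reads. Rab15 had 14 and 5 reads, Rab36 6 and 9, and Rab39 1 and 7. The other 6 not yet named (Rab3b, Rab3c, Rab17, Rab25, Rab39b and Rab44) had at most 3 reads in either library.

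Rab3il1 had 322 reads in the control library and 37 in the UNE-C1 library. This is 19.2 and 2.61 CPM, 7.38-fold lower (5.24 to 10.7; log2 fold change -2.49), and it was at least 2-fold lower under every scaling and pseudocount tried. Rab3il1 is an exchange factor that acts on Rab3a and Rab8, and its gene is on the plus strand of chromosome 19, between 10001669 and 10038380. Its paralogue Rab3ip, which activates Rab8, had 150 reads with UNE-C1 (1.72-fold higher, 1.33 to 2.23).

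The genes that load, switch and read Rabs were taken as lists, and are described by counts because no test was made. Counts past 2-fold, here and for the neighbouring families below, use log2(CPM + 1) values. Some genes with a plain ratio past 2-fold, such as Rilp, Unc13d and Vamp5, are therefore not counted. Of 48 exchange factors past the floor, 3 were at least 2-fold higher and 1, Rab3il1, lower, which is 6.25% and 2.08% beside 9.31% and 9.42% of all genes, and the median log2 fold change was 0.20. The higher ones were 3110043O21Rik, the mouse C9orf72 gene, with 755 and 1569 reads (2.45-fold, 2.25 to 2.68), Dennd3, which acts on Rab12, with 177 and 345 (2.30-fold, 1.91 to 2.77), and Dennd2d with 931 and 1708 (2.16-fold, 1.997 to 2.35). Of 32 GTPase-activating proteins, 2 (6.25%) were higher and 1 lower (median 0.16). Tbc1d4, also called AS160, which acts on Rab10 and Rab8a, had 1876 and 3729 reads (2.34-fold, 2.22 to 2.48). Tbc1d9 had 474 and 1563 reads (3.89-fold, 3.51 to 4.32), and Sgsm1 107 and 23 (3.94-fold lower, 2.50 to 6.49). The fourth gene by size, Tbc1d2b, which acts on Rab22a, had 955 and 453 reads (ratio 0.560, 0.499 to 0.626).

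Among 51 effectors, 5 (9.80%) passed 2-fold on the higher side, near the 9.31% of all genes, and 1 (1.96%) on the lower, and the median was 0.10. Rilpl1, which binds Rab8a and Rab10 when Lrrk2 has phosphorylated them, had 67 and 193 reads (3.398-fold, 2.56 to 4.56), and Micall2, an effector of Rab13 and Rab8, 64 and 178 (3.28-fold, 2.45 to 4.44). Appl2, which binds Rab5 on early endosomes, had 380 and 896 reads (2.78-fold, 2.46 to 3.14), and the phosphoinositide phosphatase Inpp5b 436 and 911 (2.46-fold, 2.20 to 2.77). The fifth was Lrrk2 (2.55-fold, 2.03 to 3.23) and the lower one Mical1, an actin oxidase, with 807 and 316 reads (2.16-fold lower, 1.90 to 2.47); both are named outside the rule, after their values were seen, as are Rabggtb and Gdi2 here. Of 16 genes of Rab prenylation and membrane extraction, Praf2, with 171 and 322 reads, was the only one past 2-fold. This is 6.25% higher and 0 lower, beside 9.31% and 9.42% of all genes, and the median was 0.02. Rabggta and Rabggtb, the subunits of the transferase that adds the lipid chains, had 130 and 180 reads and 742 and 555 reads. Gdi2, which keeps Rabs soluble, had 7020 and 5504 reads, and Yipf1 and Yipf4 had 675 and 991 and 491 and 287.

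Of the neighbouring trafficking families, 0 of 22 Arf and Arl GTPases passed 2-fold in either direction, and their median was 0.22. Arl1, Arf5, Arl5b and Arl4c had log2 fold changes of 0.74, -0.73, 0.67 and 0.59. The 33 SNARE proteins, which fuse the vesicles that Rabs deliver, had 3 higher (9.09%) and 1 lower (3.03%) beside 9.31% and 9.42% of all genes, and a median of 0.28. Stx11, of cytotoxic granule release, had 445 and 1502 reads (3.98-fold, 3.58 to 4.44), Stx2 621 and 1179, Stx8 574 and 1028, and Sec22c 336 and 91 (3.13-fold lower, 2.48 to 3.99). With total counts the medians of all 6 lists turned below 0, as that of all genes moved to -0.33.

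**Figure D5:**
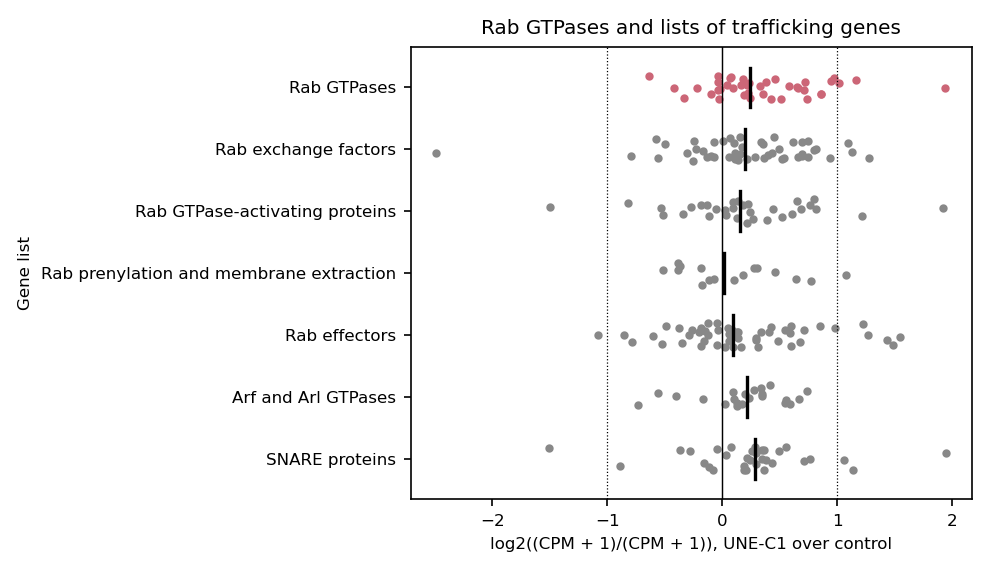
Log2((CPM + 1)/(CPM + 1)), UNE-C1 over control, of every gene past the floor in the 40 Rab GTPases and the 6 lists of trafficking genes; vertical bars are medians and dotted lines mark 2-fold. The medians lie between 0.02 and 0.28, and Rab3il1 is the lowest point, among the exchange factors.

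Promoters were searched for 6 motifs in the 250 bases before and 50 bases after the start site (RefSeq, GRCm38.p6), on both strands, for the 36 GTPases past the floor that had an entry. None of the 4 genes past 2-fold held any of them. The interferon-stimulated response element (ISRE) occurred in 1 of the 36 and in 3.49% of all 27025 promoters, and the GAS element TTCNNNGAA in 3 (8.33%) and 8.42%. The kappaB motif occurred in 1 and in 4.32% of all, and the AP-1 motif TGANTCA in 1 and in 7.92%. The hypoxia element ACGTG occurred in 8 (22.2%) and in 19.6% of all, and the lysosomal CLEAR motif TCACGTG, which contains ACGTG, in 3 (8.33%) and 3.83%. The promoter with the interferon element was that of Rab19, which had 132 and 135 reads. Windows from 100 bases before the start site to 20 bases from it on are shown for Rab19 (chr6:39381253-39381372, plus strand). For contrast, that of Rab33a (chrX:48519185-48519304, plus strand), which had the largest ratio among the GTPases past the floor, is also shown. Capitals mark 2 overlapping matches to the interferon element, read on the minus strand.
Rab19: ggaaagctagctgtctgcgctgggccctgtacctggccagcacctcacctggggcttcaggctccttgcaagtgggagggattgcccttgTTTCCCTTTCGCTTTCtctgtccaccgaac
Rab33a: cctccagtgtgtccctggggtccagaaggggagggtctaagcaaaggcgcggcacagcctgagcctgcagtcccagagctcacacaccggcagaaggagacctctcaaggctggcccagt
A match is a string of letters, not a bound site. Rab19 was chosen for display after its value was seen.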

How the data were processed

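The authors deposited 1 file per library with whole-number read counts per gene symbol, a unit read from the values because the headers hold only a number. Per the submitters' processing notes, Bowtie2, edgeR and mm10 were used; versions, counting tool, annotation, strand setting and treatment of multiply mapped reads are not stated in the labels or file headers. Per the labels' protocols, the library input was 500 ng of RNA and the kit a Lexogen QuantSeq kit; molecular identifiers are not named, so PCR copies count as reads.

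Of 23282 entries, 35 symbols were repeated and summed, none of them a Rab. CPM used TMM effective library sizes (edgeR 4.0.16, R 4.3.3; factors 1.13 and 0.888). Fold changes are log2((CPM + 1)/(CPM + 1)) and understate changes at low counts, and counts of genes past 2-fold or 1.5-fold use them. Elsewhere "-fold" is the plain CPM ratio with its conditional binomial (Clopper-Pearson) interval (scipy 1.17.1). The floor of 50 reads equals 2.99 CPM for the control and 3.52 CPM for UNE-C1. Rn45s, the ribosomal RNA precursor, took 5.21% and 3.98% of reads.

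The members and lists were chosen with earlier results of these data known. All members past the floor are named, with ratios for those past 2-fold and for the 3 of each role with the largest change, and up to 4 genes of each list; further ratios were added after the values were seen. Coding ends and 3′ overlaps come from GENCODE M21, whose 300 terminal bases per transcript were aligned to all transcripts with blastn. Protein sequences were not used, and coding ends are shown in their place; of promoters, 2 windows are shown. On simulated Poisson counts for 23238 genes, 200 of 200 genes changed 4-fold were recovered and 194 of 200 intervals held the true ratio. Such counts hold counting error only, so this check does not cover variation between cultures or changes smaller than 4-fold. Alternatives were DESeq2 (1.42.0) size factors, total counts, leaving out Rn45s, pseudocounts of 0.1 and 5, other floors and a 1.5-fold threshold.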

Additional observations from a re-analysis of the deposited data

How the results depend on the processing

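Each group holds 1 library, so nothing here measures variation between cultures, and depth limits genes with few reads, such as Rab33a. No paired analysis was possible because each group has a single library. DESeq2 size factors and leaving out Rn45s left all 41 Rab genes within their counting intervals, and total counts moved 35 outside them. With total counts 1 Rab gene was at least 2-fold higher and 1693 of all genes lower. The Rab median became -0.0841, and the list medians -0.13 (exchange factors), -0.15 (GTPase-activating proteins), -0.31 (prenylation), -0.23 (effectors), -0.12 (Arf and Arl) and -0.0548 (SNAREs); exchange factors past 2-fold numbered 2 and prenylation genes 0. The scaling alone moves every gene down, by 0.32 for the median gene. With a pseudocount of 5, 1 Rab gene was higher, 484 of all genes were lower, and 0 prenylation genes and 3 effectors passed 2-fold. With a floor of 200 reads 579 genes were lower. At 1.5-fold 12 Rab genes were higher and 2 lower, beside 1904 and 2025 of all genes. Without Rab3il1, 0 Rab genes were lower. The counts of Rab genes past 2-fold were within 1.5 times under DESeq2 size factors, without Rn45s, with a pseudocount of 0.1 and with each other floor.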
